A study of Mus musculus with 15 samples.

Results

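The comparison asked, gene by gene, whether the difference between the libraries labelled Pgr knockout and those labelled wild type took the same course in female (F) and in male (M) mice. It covers the genes of chromosomes 1 to 19 in the unfiltered count table, 51229 of the table's 55536 genes, of which 16876 held enough reads to be tested. Genes whose label effects point in opposite directions in F and M are described in most depth, and the strictest definition of them below takes in 15 genes.

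Nuclei that stained for Pcm1 were sorted from mouse ventricles, and their RNA, depleted of ribosomal RNA, was sequenced. Pcm1 marks centriolar satellites and, on the nuclear surface, the nuclei of cardiomyocytes. The labels give a genotype (Pgr_KO or Pgr_WT) and a sex, which make 4 groups, with 4 libraries in PR-KO-F, 4 in PR-KO-M, 3 in PR-WT-F and 4 in PR-WT-M. No library carries a treatment label. The tissue label opens with the numbers 3 and 6 and names no unit, so age is unknown, and no source used here describes the strain background or the knockout allele. Nothing in the labels says that replicates are separate animals, so p-values measure the spread between these libraries, which may be technical.

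Total counts ran from 24.4 to 139.4 M per library (median 49.9 M), and 3 counts, taken as the floor of detection, equal 0.0219 to 0.117 CPM (counts scaled to library size). Reads of Pgr itself ran against the genotype labels. They stood at 6.10 to 12.5 CPM in the 8 libraries labelled knockout and at 0 to 0.267 CPM in the 7 labelled wild type, so every direction here follows the label alone. Myh6, Ttn, Tnnt2, Actn2 and Ryr2, genes that define cardiomyocytes, were present in all 15 libraries, with Ttn at 23125 to 41846 CPM. The endothelial gene Pecam1 was at 37.0 to 79.5 CPM in 6 libraries (replicates 1 and 2 of PR-KO-F and PR-KO-M, replicate 1 of PR-WT-F and PR-WT-M) and at 2.62 to 8.06 CPM in the other 9. The 6 are called high and the 9 low in other-cell content below, and the model carries a term for it. Fits on the high-content libraries alone hold 1 library of PR-WT-F and 1 of PR-WT-M, so their counts of small p-values say little. In the 23 endothelial markers together the 6 libraries held 576 to 1124 CPM against 78.6 to 165 CPM. Replicate 2 of PR-KO-F, PR-WT-F and PR-WT-M held traces of the opposite sex, and the counts below were also made without these 3 libraries.

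The progesterone receptor is a nuclear receptor that binds DNA after it has bound progesterone and then switches target genes on or off, a function best known from the uterus, ovary and breast. It recognises the same DNA element as the glucocorticoid receptor, built from inverted copies of the hexamer TGTTCT. The gene with the clearest opposite effects below, Capn3, encodes calpain 3, a calcium-dependent protease of striated muscle that is held on titin in the sarcomere and whose loss causes a limb-girdle muscular dystrophy in people.

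The sequences of the genes that lead each direction are given first. For Capn3, which led the genes with a lower F and a higher M effect, and for Lrat and Pcsk5, which led the reverse, these are the 250 bases before each annotated start (RefSeq, GRCm38.p6), with the hexamer TGTTCT or its reverse complement AGAACA in capitals wherever it occurs. Neither Capn3 window holds it, the Lrat window holds it 73 bases before the start and the Pcsk5 window 151 bases before the start. Of all 32851 promoter windows of this length, 5284 (16.1%) hold it on one strand or the other.
Capn3, first start, chr2:120463343-120463592, plus strand: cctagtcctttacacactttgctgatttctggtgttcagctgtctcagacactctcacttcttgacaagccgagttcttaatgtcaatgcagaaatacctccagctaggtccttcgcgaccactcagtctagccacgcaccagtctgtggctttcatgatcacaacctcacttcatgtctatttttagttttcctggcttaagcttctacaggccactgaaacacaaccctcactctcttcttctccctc
Capn3, second start, chr2:120476659-120476908, plus strand: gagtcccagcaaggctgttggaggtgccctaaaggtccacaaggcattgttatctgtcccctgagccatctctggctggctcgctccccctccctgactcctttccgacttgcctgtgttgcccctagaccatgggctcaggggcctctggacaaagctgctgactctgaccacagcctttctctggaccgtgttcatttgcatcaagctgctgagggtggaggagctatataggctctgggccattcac
Lrat, chr3:82903975-82904224, minus strand: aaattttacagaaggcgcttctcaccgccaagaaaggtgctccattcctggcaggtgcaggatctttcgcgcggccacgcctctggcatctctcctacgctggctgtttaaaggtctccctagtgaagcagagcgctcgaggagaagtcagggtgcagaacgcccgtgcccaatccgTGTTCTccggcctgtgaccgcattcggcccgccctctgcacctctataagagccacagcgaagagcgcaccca
Pcsk5, chr19:17837633-17837882, minus strand: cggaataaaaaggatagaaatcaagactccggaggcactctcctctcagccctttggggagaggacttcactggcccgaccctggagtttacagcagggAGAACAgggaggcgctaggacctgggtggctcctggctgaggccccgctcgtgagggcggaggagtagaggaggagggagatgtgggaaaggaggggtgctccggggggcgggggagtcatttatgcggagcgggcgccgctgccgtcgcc

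Rny3 and Rny1 are the mouse Y RNAs, short noncoding RNAs that bind the Ro protein, and they lie beside each other on chromosome 6. They are shown whole (GENCODE M21, GRCm38), because their fitted values lay close together. Rny3 is 102 bases long and Rny1 112, and the longest run they share, 12 bases, is in capitals.
Rny3, chr6:47781624-47781725, plus strand: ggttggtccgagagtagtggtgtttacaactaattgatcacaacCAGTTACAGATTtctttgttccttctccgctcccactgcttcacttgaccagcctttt
Rny1, chr6:47788069-47788180, minus strand: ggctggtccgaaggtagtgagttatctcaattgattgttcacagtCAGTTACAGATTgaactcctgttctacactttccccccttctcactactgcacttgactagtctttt

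Across the autosomes no gene passed the test of the difference between F and M. Positive values of this difference, on the log2 scale, mean that the effect (label knockout minus label wild type) is higher in F than in M. The edgeR quasi-likelihood test called 0 of 16876 genes (0%) at a Benjamini-Hochberg adjusted p below 0.05, and 690 (4.09%) had an unadjusted p below 0.05, where 844 would be expected if every gene were null. The DESeq2 test of the same model called 1 gene, Capn3, and limma-voom called 0. Of the 690 genes, 293 (1.74%) had a difference below 0 and 397 (2.35%) one above 0. Within a single sex the test called 1 gene in F, Pgr (0.00593%), and 2 in M, Pgr and Gm32014 (0.0119%). Pgr itself had a difference of -0.11 ± 0.91 (SE), with effects of 6.74 in F and 6.86 in M.

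The effects in F and in M showed no positive relation across genes. Pearson's r was -0.00237 and Spearman's rho -0.138 over the 16876 genes, which are not independent replicates, and the fits share the scaling and the other-cell term. Opposite signs were seen in 10052 genes (59.6%), F below 0 and M above 0 in 4833 of them (28.6%). With an unadjusted p below 0.05 asked of each sex, 15 genes had opposite signs (0.0889%) and 22 the same sign (0.13%). Single-sex p-values below 0.05 were found for 503 genes in F (2.98%) and 493 in M (2.92%). The plot of the M effect against the F effect shows the 15 genes in the corners where signs differ.

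**Figure D1:**
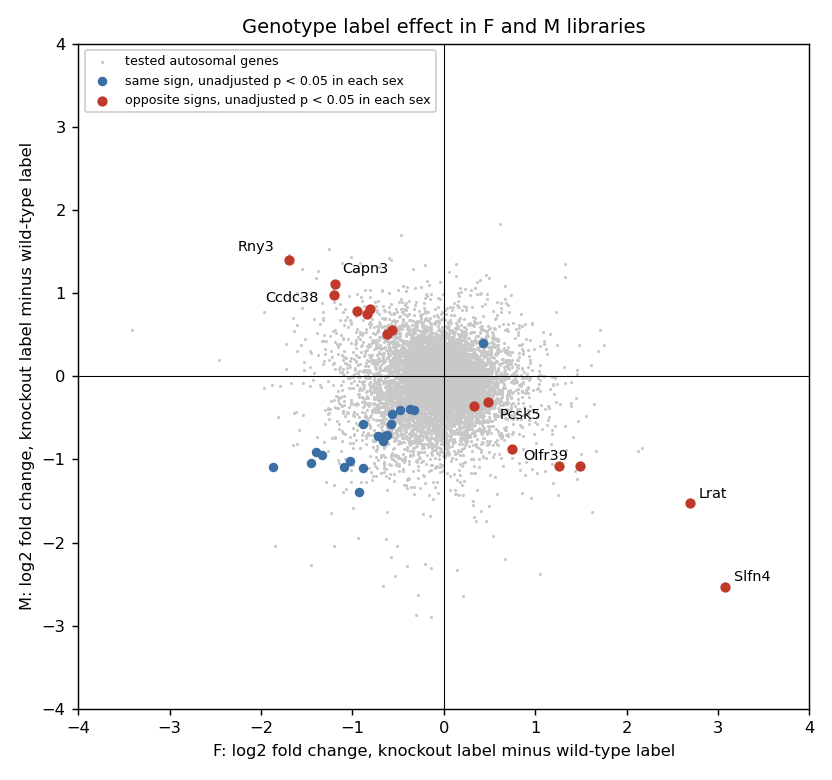
Log2 fold change of the label knockout over the label wild type in F (horizontal) and M (vertical) libraries, 1 point per tested autosomal gene, from the model with the other-cell term. Red points are the 15 genes with opposite signs and an unadjusted p below 0.05 in each sex, blue points are 19 of the 22 genes with the same sign, and 4 genes lie outside the axes. Most genes lie around 0 without a slope.

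The 15 genes were chosen by these unadjusted p-values, so their differences are given as values and none is a called change. All 15 had an adjusted p of 0.906 for the difference. A lower effect in F and a higher one in M was seen in 8 (0.0474%), and the reverse in 7 (0.0415%). They comprise 8 protein-coding genes, 4 lincRNAs and 3 of other types on 12 chromosomes, and 5 carry predicted names. Their median level was 0.23 log2 CPM against 2.66 over all tested genes, and 7 of the 15 (46.7%) lay below 1 CPM against 25.5% of all. Just inside the limit were Cdc14a, Gm15738 and Gm37336, whose larger p was 0.0479, 0.0489 and 0.0498. Just outside it were Dnaaf3, Gm28047 and Cfap61 at 0.0513, 0.0568 and 0.0577.

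Capn3 (chromosome 2, 120456019 to 120504913, plus strand) had the smallest p of the difference among all tested autosomal genes, 7.48e-05. In F it stood at 3.27, 0.948, 1.56 and 1.78 CPM in the 4 libraries labelled knockout and at 3.77, 3.70 and 5.17 CPM in the 3 labelled wild type. In M it stood at 5.35, 5.63, 4.48 and 6.47 CPM under the knockout label and at 2.88, 2.11, 3.04 and 1.97 CPM under the wild-type label. All F libraries labelled knockout lay below all F libraries labelled wild type, and all M libraries labelled knockout lay above all M libraries labelled wild type. Group means were 1.89 ± 0.99 (SD, n = 4) against 4.21 ± 0.83 CPM (n = 3) in F and 5.48 ± 0.82 (n = 4) against 2.5 ± 0.54 CPM (n = 4) in M. The fitted effect was -1.19 ± 0.32 in F and 1.12 ± 0.29 in M (log2, SE), a difference of -2.31 ± 0.43 with an edgeR adjusted p of 0.906.

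The low-content libraries alone gave a difference of -2.63 for Capn3 and the high-content libraries alone -1.78. In the low ones the mean was 1.67 against 4.44 CPM in F and 5.48 against 2.37 CPM in M, knockout label first. In the high ones it was 2.11 against 3.77 CPM in F and 5.49 against 2.88 CPM in M. Leaving out each library in turn gave -2.74 to -2.07. Capn3 passed the threshold in the DESeq2 test (adjusted p = 0.00101) and without PR-KO-F replicate 1 in edgeR (0.0227), but not in limma-voom (0.334). With no filter on low counts its edgeR adjusted p was 2.23e-09. That fit called 119 genes and had infinite prior degrees of freedom, against a median of 4.95 in the main fit.

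Genes around Capn3 were set beside it because reads are counted over whole gene bodies. Ganc, a glucosidase gene on the same strand, overlaps the first 5682 bases of the span counted for Capn3. That span begins upstream of both Capn3 starts shown above, and the bases before it were not searched for the hexamer. The difference of Ganc was -0.04 (unadjusted p = 0.734) at a mean of 55.0 CPM. Zfp106, the zinc finger gene that follows Capn3 on the other strand, had -0.16 (unadjusted p = 0.294). Within 250 kb, an unadjusted p below 0.05 was also found for the lincRNA Gm26899, at -2.65 (unadjusted p = 0.00463, mean 0.130 CPM), and for Stard9, a kinesin gene, at -0.95 (unadjusted p = 0.0234). In both of those the F effect was negative (-2.46 and -0.87) and the M effect near 0 (0.20 and 0.08), where that of Capn3 was 1.12.

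The other calpains did not share the values of Capn3. Of 11 tested genes of the family and its inhibitor calpastatin, 8 (72.7%) had a difference below 0, against 48.6% of all tested genes, and the median was -0.12 against 0.01. In the high-content libraries alone 3 of 11 lay below 0 and the median had the other sign (0.05). It ran from -0.25 (without PR-WT-F replicate 2) to -0.05 (without PR-KO-M replicate 4) when single libraries were left out. Capn3 was the only one with an unadjusted p below 0.05. Capn1 and Capn2, the large subunits of the ubiquitous calpains, had -0.14 ± 0.31 and -0.12 ± 0.19. Capns1, their shared small subunit, had -0.17 ± 0.24, and Cast, calpastatin, -0.08 ± 0.21. Capn9, at 0.209 to 0.615 CPM, had 0.82 ± 0.42 (unadjusted p = 0.0709), opposite in sign to Capn3.

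**Figure D2:**
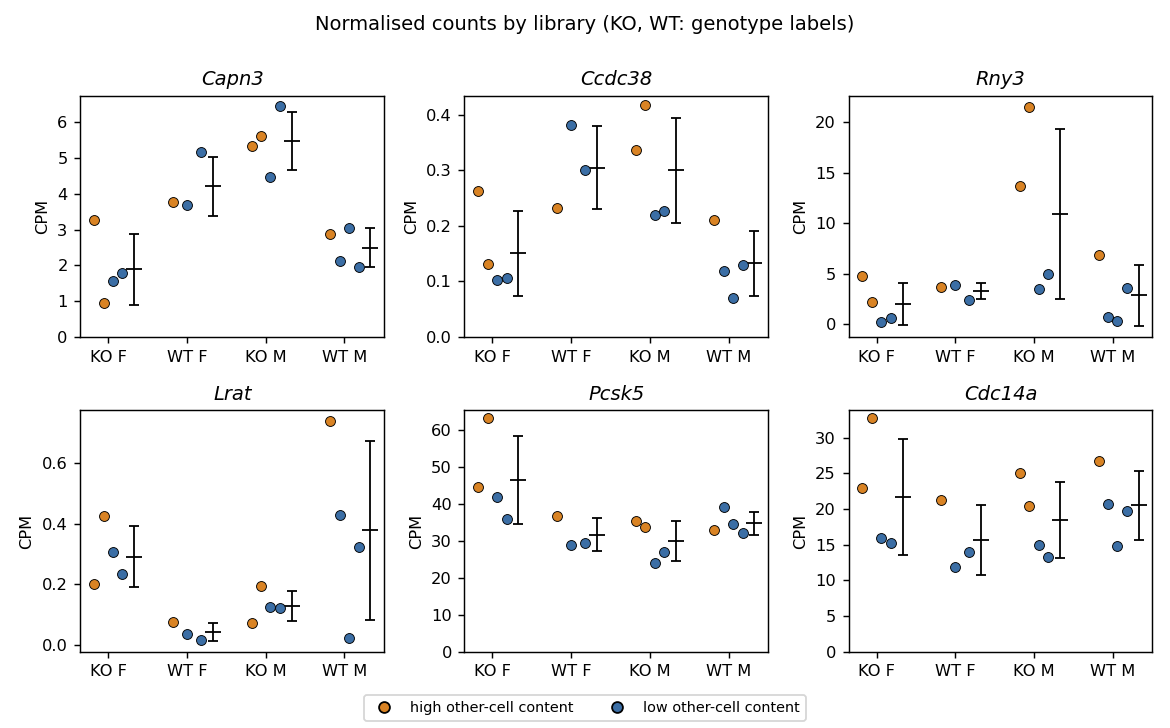
CPM (vertical axes) of 6 of the 15 genes in each library, by genotype label and sex, with the mean and SD of each group beside the points. Orange points are libraries with high other-cell content and blue points those with low. For Capn3 the label groups do not overlap in F or in M, while for Cdc14a they overlap in both.

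Ccdc38, a coiled-coil protein gene of the sperm flagellum (chromosome 10, 93540632 to 93584327, plus strand), had a difference of -2.19 ± 0.52 at very low counts. In F it stood at 0.263, 0.131, 0.102 and 0.106 CPM under the knockout label and at 0.233, 0.382 and 0.301 CPM under the wild-type label. Its M libraries held 0.336, 0.417, 0.220 and 0.226 CPM against 0.210, 0.119, 0.0707 and 0.130 CPM. The M groups do not overlap, and the F groups do through PR-KO-F replicate 1. These values rest on 30, 32, 86 and 34 reads in PR-KO-F, PR-WT-F, PR-KO-M and PR-WT-M.

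Rny3 had the most negative difference of the 15 genes, -3.10 ± 0.87, with effects of -1.70 in F and 1.40 in M. In F it stood at 4.81, 2.24, 0.205 and 0.678 CPM under the knockout label and at 3.65, 3.93 and 2.42 CPM under the wild-type label. Its M libraries held 13.7, 21.5, 3.46 and 5.03 CPM against 6.85, 0.735, 0.330 and 3.55 CPM. Labels overlap in both sexes, and in 3 of the groups the high-content libraries held the highest values. The difference was -4.20 in low-content and -1.43 in high-content libraries, and -2.21 without the 3 libraries that hold traces of the opposite sex (unadjusted p = 0.0704). Rny1, chosen after its values were seen, had -2.79 ± 0.89 (unadjusted p = 0.00676) with effects of -1.26 in F and 1.53 in M. Y RNAs have many related copies in the genome, and no source used here says how reads shared between copies were counted.

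Hist1h3d, a replication-dependent histone H3 gene (chromosome 13, 23575763 to 23577011, plus strand), had -1.12 ± 0.35. Its F libraries held 0.849, 0.719, 1.43 and 1.42 CPM under the knockout label and 1.86, 1.95 and 1.33 CPM under the wild-type label. Its M libraries held 1.53, 1.41, 1.49 and 1.59 CPM against 1.08, 0.830, 1.39 and 1.08 CPM. The M groups are apart by a small margin (1.41 against 1.39 CPM) and the F groups overlap. Histone genes of the cluster are near-identical, so this value is uncertain. The remaining 4 genes of this direction have predicted names. Gm34184 had -1.74 ± 0.46, Gm37336 -1.61 ± 0.51, Gm15738 -1.59 ± 0.51 and Gm45512 -1.11 ± 0.31. Gm15738 runs antisense to Mrtfb (0.15, unadjusted p = 0.356), a coactivator of serum response factor.

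In the reverse direction, Lrat (chromosome 3, 82892579 to 82903973, minus strand), the enzyme that esterifies retinol for storage, had a difference of 4.21 ± 0.99. In F it stood at 0.202, 0.425, 0.307 and 0.233 CPM under the knockout label and at 0.0777, 0.0382 and 0.0188 CPM under the wild-type label. In M it stood at 0.0748, 0.196, 0.126 and 0.124 CPM against 0.736, 0.427, 0.0236 and 0.324 CPM. The F groups do not overlap, and in M the wild-type replicate 3 lies below all libraries labelled knockout. Both orderings use values below the floor of 3 counts. PR-WT-F held 2, 1 and 1 reads, PR-KO-M replicate 1 held 2 and PR-WT-M replicate 3 held 1. The F ratio of pooled reads, 59 against 4, was 7.88 (95% interval 2.92 to 29.9, exact Poisson test, counting error only). Lrat lies within the span of the antisense gene Rbm46os, whose difference was 0.98 (unadjusted p = 0.173).

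Pcsk5 (chromosome 19, 17432319 to 17837632, minus strand) is the best-read protein-coding gene of this direction. It encodes proprotein convertase 5, which cleaves growth factor precursors and is needed for heart development. In F it stood at 44.6, 63.3, 41.7 and 35.9 CPM under the knockout label and at 36.9, 28.8 and 29.4 CPM under the wild-type label. In M it stood at 35.4, 33.8, 24 and 26.9 CPM against 33.1, 39.3, 34.4 and 32.0 CPM. Labels overlap in both sexes. The difference was 0.80 ± 0.20 (unadjusted p = 0.00118), with effects of 0.49 in F and -0.31 in M, and in high-content libraries alone the M effect had the other sign (0.09).

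Cdc14a, a phosphatase that acts at centrosomes and cilia (chromosome 3, 116272553 to 116424032, minus strand), had 0.69 ± 0.21. Its F libraries held 22.9, 32.7, 16.0 and 15.3 CPM under the knockout label and 21.2, 11.8 and 14.0 CPM under the wild-type label. Its M libraries held 25.0, 20.5, 15 and 13.3 CPM against 26.8, 20.7, 14.9 and 19.8 CPM. All 6 high-content libraries lay at 20.5 CPM or above, and labels overlap in both sexes.

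The other 4 genes of this direction, apart from Olfr39, had few reads or rested on few libraries. Slfn4, an interferon-induced gene of myeloid cells, had 5.61 ± 1.47 (chromosome 11, 83175186 to 83190216). It had 35 reads in PR-KO-F against 1 in PR-WT-F and 7 in PR-KO-M against 44 in PR-WT-M. Of those 44, 41 came from replicate 1 at 0.616 CPM, and without that library Slfn4 had too few reads to be tested. Olfr39, an olfactory receptor gene, had 1.62 ± 0.46, and its M effect of -0.87 became 0.07 in high-content libraries alone. It had 461 reads in PR-KO-F, 161 in PR-WT-F, 378 in PR-KO-M and 618 in PR-WT-M, and its labels overlap in both sexes. The lincRNAs AI314278 and C130073E24Rik had 2.33 ± 0.64 and 2.57 ± 0.68 on 37 against 10 and 82 against 17 reads in F, knockout label first. Scaled to depth, their F ratios of pooled reads were 1.98 (95% interval 0.963 to 4.46) and 2.58 (1.51 to 4.63), with counting error only.

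Groups that did not overlap in either sex were rare. In F the label groups of 332 genes did not overlap in CPM (1.97%), and in M those of 276 (1.64%). In both sexes at once they were apart in opposite directions for 6 genes (0.0356%) and in the same direction for 8 (0.0474%). Capn3, Gm34184, Gm45512 and Gm30556 were the 4 with F lower and M higher (0.0237%). Ppm1d and Usp42 were the 2 with the reverse (0.0119%). Ppm1d, a phosphatase that turns off the p53 response, had a difference of 0.52 ± 0.15 (unadjusted p = 0.00430), and Usp42, a deubiquitinase, 0.27 ± 0.14 (unadjusted p = 0.0820).

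**Figure D3:**
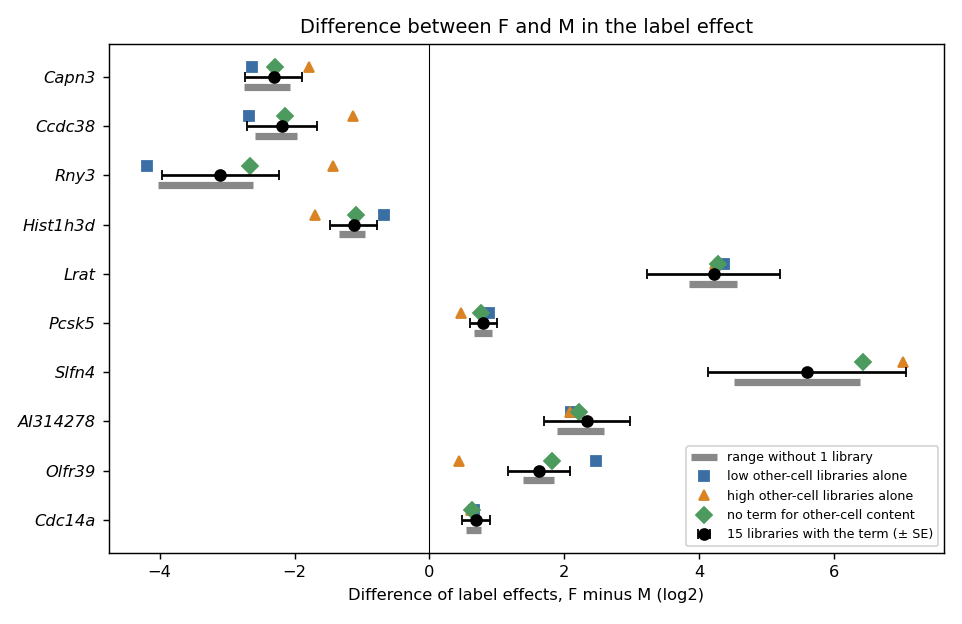
Difference between F and M in the label effect (log2, horizontal) for the 10 named genes among the 15. Black points and bars are the estimate and SE from 15 libraries, coloured symbols are fits without the other-cell term or within 1 content class, and grey bars span the fits that leave out 1 library (Slfn4 had too few reads in some). No symbol crosses 0, and Capn3 spans -2.74 to -1.78.

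Lists of genes for heart functions were then read by their counts and medians beside those of all tested genes, of which 48.6% had a difference below 0 and the median was 0.01. No member of any of the 29 lists was called by edgeR. Members of a list were read in the same 15 libraries and are not independent replicates. The lists differ in how long their genes are, which is given with them, because the difference moved with gene length, as shown after the lists.

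Contractile genes lay on the side of a lower F effect. Of 37 tested genes of the sarcomere and Z-disc, 31 (83.8%) had a difference below 0, 27 of them with a negative F and a positive M effect, and the median was -0.43. The median label effect was -0.24 in F and 0.19 in M. As a geometric mean of CPM plus 1, the list stood at 232, 157, 198 and 197 in PR-KO-F. PR-WT-F held 235, 215 and 228. The values were 207, 241, 250 and 269 in PR-KO-M and 236, 173, 227 and 244 in PR-WT-M. For the list as a whole, labels overlap in both sexes. Unadjusted p-values below 0.05 were found for 6 members, all below 0, against 1.74% of all genes on that side. They were Actc1 (-0.56 ± 0.21), the cardiac actin, Lmod2 (-0.38 ± 0.16), which lengthens thin filaments, Mypn (-0.54 ± 0.23), Csrp3 (-0.41 ± 0.18), Tnnc1 (-0.62 ± 0.27), the calcium sensor of the thin filament, and Myl2 (-0.69 ± 0.32), the ventricular regulatory light chain. Ttn, the giant spring protein, had -0.11 ± 0.23 and Myh6 -0.45 ± 0.35. The median difference of the list kept its sign in 26 of 26 alternatives, from -0.59 to -0.30 when single libraries were left out. These alternatives reuse the same libraries, so kept signs are no independent support. In the high-content libraries alone, with 1 library labelled wild type in each sex, the median was -0.20 and the M median -0.02. Without the other-cell term 2 members had an unadjusted p below 0.05.

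Actc1 stood at 577, 502, 621 and 685 CPM in PR-KO-F and at 564, 671 and 803 CPM in PR-WT-F. In M it stood at 488, 639, 683 and 717 CPM under the knockout label and at 517, 362, 523 and 558 CPM under the wild-type label. Labels overlap in both sexes.

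Stress and fetal-programme genes had the second most negative median among the lists, -0.53, with 13 of 17 (76.5%) below 0 and 3 at an unadjusted p below 0.05. The list is not separate from the sarcomere list, which also holds Myh7, Cryab, Des, Xirp2, Ankrd1, Myl4 and Myl7. Nppa, atrial natriuretic peptide, had 0.125 ± 0.512. Gdf15, a stress hormone of the TGF-beta family, had -1.64 ± 0.58 (unadjusted p = 0.0120). It stood at 0.424, 0.458, 0.282 and 0.509 CPM in PR-KO-F and at 0.738, 1.34 and 0.771 CPM in PR-WT-F, which do not overlap. The M libraries held 0.934, 2.88, 1.38 and 2.84 CPM against 0.751, 1.21, 1.74 and 2.19 CPM, which overlap. Nppb, brain natriuretic peptide, had -1.26 ± 0.53, but PR-WT-F replicate 2 stood at 258 CPM against 80.1 and 64.4 CPM in the other libraries of its group, and without it the difference was -0.49 (unadjusted p = 0.289). Acta1, skeletal actin, had -1.14 ± 0.48. Without PR-WT-F replicate 2 the median of the list was -0.35.

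In energy metabolism, 40 of 46 oxidative phosphorylation subunits (87.0%) and 22 of 25 genes of glycolysis and glucose uptake (88.0%) had a difference below 0. Their medians were -0.20 and -0.21. Uqcrq, of complex III, had -0.60 ± 0.25, and Cox6a2 and Cox7a1, the heart and muscle subunits of cytochrome oxidase, -1.19 ± 0.53 and -0.75 ± 0.34. In glycolysis, Aldoa, aldolase A, had -0.63 ± 0.23, whereas Pdk1, the kinase that shuts off pyruvate dehydrogenase, had 0.60 ± 0.22. In the high-content libraries alone both medians came nearer to 0, at -0.07 and -0.03. Genes of fatty acid oxidation lay the other way, with 22 of 33 above 0, a median of 0.16 and no member at an unadjusted p below 0.05. That median was 0.04 without PR-WT-F replicate 1 and 0.29 without PR-WT-F replicate 2. Among them, Hadh, a dehydrogenase of beta-oxidation, had 0.32 ± 0.18 (unadjusted p = 0.100) and Ppargc1a, a coactivator of mitochondrial genes, 0.31 ± 0.21. The glycolysis median was -0.34 without PR-WT-M replicate 1.

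Calcium-handling genes did not lie on a single side, with 14 of 30 (46.7%) below 0 and a median of 0.01. Of them, 3 had an unadjusted p below 0.05, all below 0. S100a1, which raises calcium cycling in cardiomyocytes, had -0.91 ± 0.29 (unadjusted p = 0.00666). It stood at 18.9, 12.0, 9.94 and 11.5 CPM in PR-KO-F against 18.3, 16.5 and 19.98 CPM in PR-WT-F, and at 19.9, 25.5, 19.1 and 24.6 CPM in PR-KO-M against 22.6, 11.4, 14.0 and 19.4 CPM in PR-WT-M. The label groups overlap in both sexes. Hrc and Casq2, calcium-binding proteins of the sarcoplasmic reticulum, had -0.83 ± 0.35 and -0.60 ± 0.26.

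The list of targets of the progesterone and glucocorticoid receptors lay on the side of a higher F effect, 19 of 27 above 0 with a median of 0.16. It also counts the receptor coactivators Ncoa1 (0.058), Ncoa2 (0.133) and Ncoa3 (0.158) and the receptor co-chaperone Fkbp4 (-0.347). The median label effect was 0.04 in F and -0.21 in M. In the low-content libraries alone the median difference was 0.06, with 0 members at an unadjusted p below 0.05, and without PR-KO-F replicate 2 it was 0.09. Klf9, a zinc finger factor induced by both receptors, had 0.44 ± 0.16 (unadjusted p = 0.0141). It stood at 105, 103, 92.1 and 73.9 CPM in PR-KO-F against 77.6, 73.8 and 79.0 CPM in PR-WT-F. In M it stood at 91.9, 78.7, 88.2 and 78.0 CPM against 88.7, 94.4, 98.3 and 92.9 CPM. Errfi1, a feedback inhibitor of the EGF receptor, had 0.71 ± 0.27 (unadjusted p = 0.0187). Other-cell content moved with Errfi1, since the 6 high-content libraries held 7.46 to 13.4 CPM and the 9 low-content ones 4.15 to 7.57 CPM, and its part in the difference was not tested beyond the term in the model.

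Interferon-stimulated genes lay on the same side, with 21 of 27 above 0 and a median of 0.25, from a median effect of -0.03 in F and -0.36 in M. Oas1a (2.26 ± 0.75), Ifi44 (1.14 ± 0.49) and Ifih1 (0.82 ± 0.38), all antiviral genes, had unadjusted p-values below 0.05. Oas1a stood at 1.79 CPM in PR-WT-M replicate 1 and at 0.0236 to 0.173 CPM in the other 3 libraries of that group. Without that library, the only high-content one of its group, the list's median was 0.13 with 18 of 27 above 0, and the M median was -0.21. In the low-content libraries the median was 0.04 and in the high-content ones 0.67.

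The dystrophin complex and intercalated disc list was evenly split, with 13 of 26 below 0 and a median of 0.00. Sntb1, a syntrophin of the complex, had 0.75 ± 0.24 (unadjusted p = 0.00763) and stood at 99.2, 141, 121 and 116 CPM in PR-KO-F against 72.2, 92.8 and 67.3 CPM in PR-WT-F, which do not overlap. The M libraries held 86.1, 97.5, 121 and 82.5 CPM against 75.3, 132, 108 and 114 CPM, which do. Utrn, utrophin, the relative of dystrophin, had 0.32 ± 0.13 (unadjusted p = 0.0306).

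Heat shock proteins and chaperones had 20 of 27 members below 0 and a median of -0.30, which was -0.67 without PR-WT-M replicate 3 and -0.14 without PR-KO-M replicate 4. Among them, Hspb6, a small heat shock protein of muscle, had -0.84 ± 0.32. Core clock genes and outputs had 7 of 21 below 0 and a median of 0.12, with no member at an unadjusted p below 0.05. The median took the other sign in 4 of 26 alternatives, without PR-KO-F replicate 3 (-0.03), PR-WT-F replicate 2 (-0.02), PR-WT-M replicate 1 (-0.06) or PR-WT-M replicate 4 (-0.002). Nr1d2, a repressor of the clock loop, had 0.48 ± 0.24 and Ciart, another clock repressor, 1.53 ± 1.01. Immediate early genes had 17 of 26 below 0 and a median of -0.18, which was -0.36 without PR-KO-F replicate 2 and -0.06 without PR-KO-M replicate 4. Ier5 had -0.82 ± 0.37 and Dusp5, a phosphatase of ERK, -0.52 ± 0.28.

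Cardiac transcription factors (14 of 26 below 0, median -0.03), ion channels (15 of 28, -0.02), nuclear receptors (15 of 28, -0.05), ubiquitin and autophagy genes (18 of 28, -0.06), cyclic nucleotide signalling (15 of 30, 0.02) and cell cycle genes (13 of 30, 0.03) had medians within 0.1 of 0. With DESeq2 size factors the medians of the calcium, dystrophin and cyclic nucleotide lists took the other sign. Among them, Kcnj3, a subunit of the acetylcholine-gated potassium channel, had 0.61 ± 0.24, Bnip3l, a mitophagy receptor, 0.57 ± 0.23, and Nfia, a transcription factor, 0.44 ± 0.19. Other members with small p but none below 0.05 were Hand2, a transcription factor of the heart fields (-0.62 ± 0.32), Paqr9, of the membrane progestin receptor family (0.46 ± 0.22), Map1lc3a, of autophagosome membranes (-0.61 ± 0.32), Pde1c, a calcium-activated phosphodiesterase (0.54 ± 0.26), and Cdkn1b, a cell cycle inhibitor (0.57 ± 0.30).

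**Figure D4:**
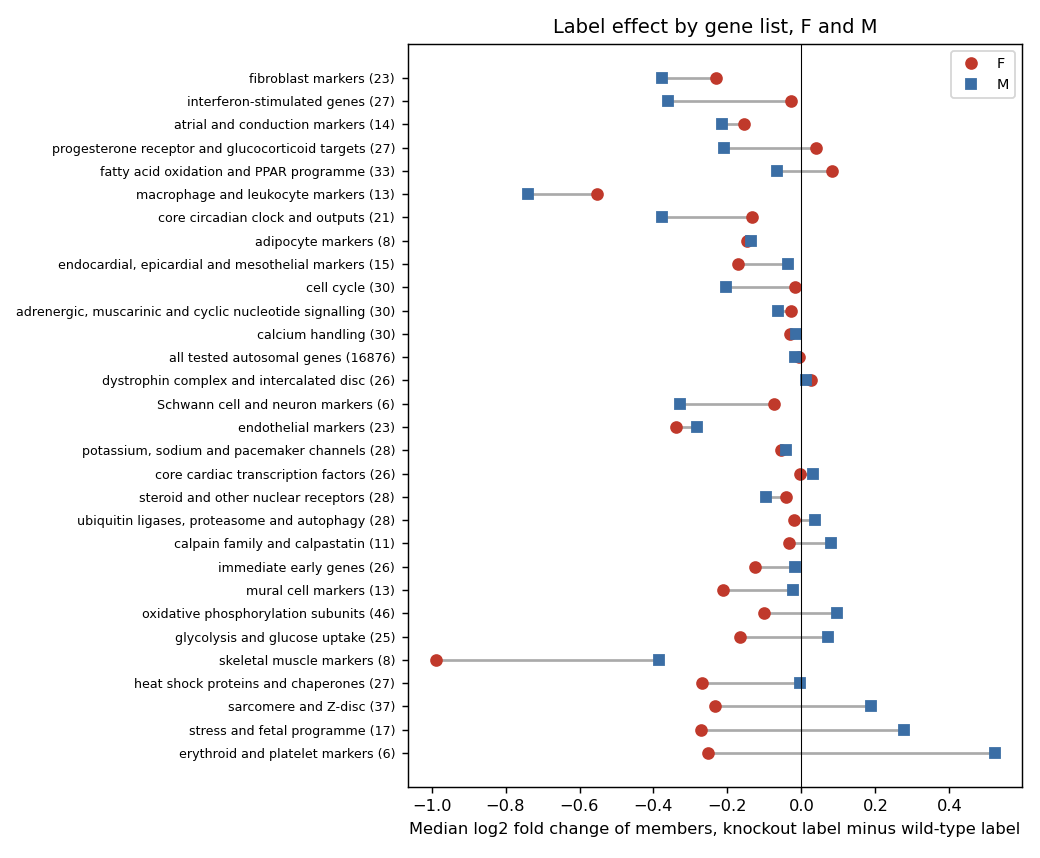
Median log2 fold change (label knockout minus label wild type, horizontal) over the tested members of each list in F (red circles) and in M (blue squares), ordered by the median difference, with the number of members in parentheses. The sarcomere list lies at -0.24 in F and 0.19 in M, the interferon list at -0.03 and -0.36, and all tested genes near 0.

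Markers of other cells were examined the same way, since the sort can carry nuclei of other cells. Among these lists, the atrial and conduction markers belong to cardiomyocytes outside the working ventricular muscle. Over the 10 lists the median difference ran from -0.63 to 0.25, and 0 members were called. Endothelial markers had a median of -0.01 (14 of 23 below 0). Its sign differed between the content classes, with -0.69 (18 of 23 below 0) in low-content and 0.43 (1 of 23) in high-content libraries alone. The same split was seen for mural cell markers (-0.60 and 0.28) and macrophage and leukocyte markers (-0.55 and 0.75), low content first. Over all libraries, fibroblast markers had a median of 0.25 (4 of 23 below 0), which turned to -0.48 without PR-WT-M replicate 2. Mural cell (-0.18, 9 of 13 below 0), macrophage and leukocyte (0.14, 6 of 13), endocardial and epicardial (0.03, 6 of 15), Schwann cell and neuron (-0.01, 3 of 6), adipocyte (0.09, 4 of 8), atrial and conduction (0.17, 5 of 14) and skeletal muscle markers (-0.29, 5 of 8) lay between. Erythroid and platelet markers were all below 0 (6 of 6, median -0.63), with Hba-a2, an alpha-globin, at -1.20 ± 0.50, although Hba-a1 and Hba-a2 are near-identical copies and how reads were split between them is not stated. The median of these markers was -1.51 in low-content and -0.05 in high-content libraries alone. Their summed level was 28.6 to 68.3 CPM in high-content and 6.74 to 19.98 CPM in low-content libraries. Pecam1 was present in every library, and the part of other cells in the list medians was not tested.

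Further single markers with small p were Cx3cr1, a chemokine receptor of macrophages (-0.65 ± 0.24, unadjusted p = 0.0149), Cadm2, an adhesion molecule of neurons (1.41 ± 0.55, unadjusted p = 0.0212), and Mybpc2, the fast skeletal myosin-binding protein (-1.12 ± 0.46, unadjusted p = 0.0270). Casq1, skeletal calsequestrin (-0.65 ± 0.37), Des, desmin (-0.45 ± 0.28), Adipoq, adiponectin (-1.58 ± 0.89), Pparg, an adipocyte regulator (0.21 ± 0.19), and Tbx3, a factor of the conduction system (0.26 ± 0.22), had unadjusted p-values above 0.05. Des is also in the sarcomere and stress lists and Casq1 in the calcium list. Unlike the endothelial sums, those of mural markers overlapped between high-content (666 to 788 CPM) and low-content libraries (650 to 857 CPM). Those of skeletal muscle markers did too (109 to 206 and 121 to 197 CPM), as did those of atrial and conduction markers (167 to 319 and 180 to 273 CPM). In bulk RNA, fewer cells of a type and less RNA per cell cannot be told apart.

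Gene length moved with the difference. Genes were ordered by the distance from start to end and split into 5 bins of equal number, a choice made after the data were seen. Of the 3376 shortest genes (up to 6.76 kb), 62.1% had a difference below 0 and the median was -0.13, while of the 3375 longest (over 73.8 kb) 32.4% did and the median was 0.13. At an unadjusted p below 0.05, 123 of the shortest lay below 0 and 48 above, against 28 below and 166 above among the longest. In both bins F and M effects had opposite medians, -0.10 and 0.02 for the shortest and 0.06 and -0.06 for the longest.

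**Figure D5:**
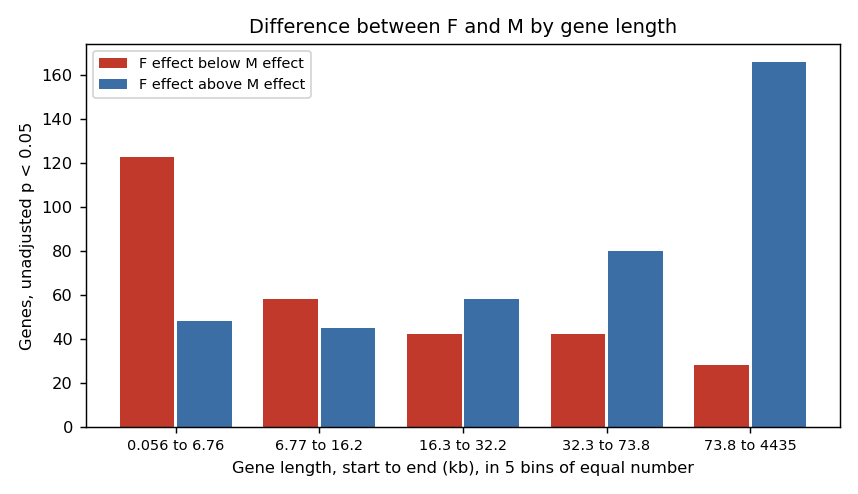
Number of autosomal genes with an unadjusted p below 0.05 for the difference (vertical), below 0 in red and above 0 in blue, in 5 bins of gene length from start to end (horizontal, kb). Red falls from 123 in the shortest bin to 28 in the longest, and blue is 48 in the shortest and 166 in the longest.

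The libraries differed in the share of counts on these shortest genes. It was 4.38% to 6.03% in PR-KO-F (mean 5.06% ± 0.726, n = 4), 5.89% to 6.37% in PR-WT-F (6.09% ± 0.256, n = 3), 4.25% to 7.84% in PR-KO-M (6.06% ± 1.52, n = 4) and 4.75% to 6.92% in PR-WT-M (5.82% ± 1.20, n = 4). The highest, 7.84%, was PR-KO-M replicate 4, and without it the median of the shortest genes was -0.06 and their counts 49 below and 30 above. Within the high-content libraries the medians were 0.02 for both the shortest and the longest genes, and within the low-content libraries -0.21 and 0.18.

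Some of the lists that lay below 0 hold short genes, while the sarcomere list had a median length close to that of all tested genes. The median length was 5.31 kb for the stress and fetal programme, 7.78 kb for oxidative phosphorylation, 9.61 kb for heat shock proteins, 20.6 kb for glycolysis and 23.1 kb for the sarcomere, against 23.2 kb for all tested genes. It was 27.0 kb for fatty acid oxidation, 15.9 kb for interferon-stimulated genes and 14.7 kb for the list of receptor targets, which lay above 0. How far length accounts for the list medians was not tested. Capn3 spans 48895 bases and Pcsk5 405314.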

How the data were processed

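Per the submitters' processing notes, which list tools and builds without their order, the authors used STAR 2.5.3a, featureCounts 1.5.0 and the mouse build GRCm38 (mm10). The deposited table holds raw counts per gene, without normalisation, over whole gene bodies (introns included), so long genes gather more reads. Counts were analysed with edgeR 4.0.16 in R 4.3.3. The low-count filter filterByExpr left 17455 genes, libraries were scaled by TMM, and a robust quasi-likelihood model had 4 group means and a term for other-cell content (high at 20 CPM of Pecam1 or more), with 10 residual degrees of freedom. P-values were adjusted over all 17455 genes (Benjamini-Hochberg, called below 0.05), and rows of chromosomes 1 to 19 are printed. CPM uses TMM library sizes.

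The genes, lists and tests were chosen with earlier results of these data known. The text names the genes with opposite effects at an unadjusted p below 0.05 in each sex (up to 10 a direction by smallest p of the difference, predicted names left out), Capn3, the checks Pgr, Pcm1 and Pecam1, and the 2 members of each list with the smallest p. All other genes were named after their values were seen. Names and coordinates of 74 of 74 such genes matched GENCODE M21. Alternatives used DESeq2 1.42.0, limma 3.58.1, other library sets and settings. The scripts were tested on simulated data. Identical libraries were not found (0 pairs).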

Additional observations from a re-analysis of the deposited data

Results flagged for a closer look

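Of 222 groups of 4 libraries examined (1 gene in 1 group each), 17 held a library far from the other 3. The limit used flags about 1 in 20 independent groups by chance, but these genes were chosen and are not independent. In 11 of the 17 groups the library was PR-WT-M replicate 1, the only one of its group with high other-cell content. It held 0.616 CPM of Slfn4, 0.345 of Esr2, 1.79 of Oas1a, 0.345 of Ccnb1, 40.9 of Npr3, 6.52 of Robo4, 23.6 of Postn, 1.32 of Msln, 4.88 of Hba-a2, 9.19 of Hba-a1 and 47.6 of Pecam1, each above the other 3 libraries of its group. Pecam1 defines the content classes, so its flag is no finding. Npr3, Robo4, Postn, Msln, Hba-a2 and Hba-a1 are listed markers of other cells. PR-KO-F replicate 1 stood apart with 1766 CPM of Lama2 and 156 CPM of Pcm1, both low, and 4.04 CPM of Stard10, which was high. PR-KO-M replicate 3 stood apart with 63.6 CPM of Hspa8, which was low, and 8022 CPM of Pde4d, which was high. PR-WT-M replicate 3 was high in Acta2 at 144.6 CPM.

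The difference between F and M in the label effect of Capn3 passed the DESeq2 test (adjusted p = 0.00101) and missed the edgeR test (0.906). Adjusted p-values over all its alternatives ran from 2.23e-09, with no low-count filter, to 1.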

How the results depend on the processing

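The count of genes called for the difference was 0, and 0 in the alternatives other than DESeq2 (1), no low-count filter (119) and without PR-KO-F replicate 1 (leave-one-out range 0 to 1). With no filter the prior degrees of freedom became infinite, against a median of 4.95. Genes at an unadjusted p below 0.05 numbered 690, and 421 without the other-cell term, 91 in high-content libraries, 1705 with no filter, and 344 (without PR-KO-M replicate 4) to 1478 (without PR-KO-F replicate 1) in leave-one-out. Calls in F, 1 at first, were 0 without the term and in low- or high-content libraries alone, 4 in DESeq2, 86 with no filter and 1 to 2 in leave-one-out. Calls in M, 2 at first, were 0 in low- or high-content libraries alone, 5 in DESeq2, 208 with no filter and 2 to 3 in leave-one-out.

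Genes with opposite effects, F lower and M higher, numbered 8. They were 5 without the term, 14 in low- and 1 in high-content libraries, 15 in DESeq2, 15 in limma-voom, 77 with no filter, 4 without the 3 libraries that hold traces of the opposite sex, and 2 to 34 in leave-one-out. The reverse direction had 7, and 1 without the term, 18 in low- and 1 in high-content libraries, 4 with DESeq2 size factors, 3 in DESeq2, 3 in limma-voom, 52 with no filter, 3 without those 3 libraries, and 2 to 34 in leave-one-out. Both extremes came without PR-KO-M replicate 4 and PR-KO-F replicate 1. The cause was not tested. The 15 genes kept their directions in both sexes in every alternative that tested them except the high-content libraries, where 12 of 15 did. They were chosen by these directions in the same libraries, so kept signs are no independent support. Fewer met the p limit in each sex again: 5 of 14 tested in low-content libraries, 4 without PR-KO-M replicate 4 and 14 with autosomal genes fitted alone.

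Differences that changed sign were Kcnd2 (-0.032), Nr1d2 (-0.15), Robo4 (0.29), Cd68 (0.13), Pgr (0.36) and Pcm1 (-0.024) in high-content libraries, and Npr3 (-0.15), Gfra3 (-0.24) and Pgr (0.32) without the 3 libraries. Pgr was also 0.19 with the replicate block, and ran from -1.05 (without PR-WT-F replicate 3) to 1.18 (without PR-WT-F replicate 2) in leave-one-out, with 0.19 without PR-WT-M replicate 3 and 0.51 without PR-WT-M replicate 4. Same-numbered libraries deviated from their group means with correlations of -0.41 to 0.842, above 0.1 in every pair (those of the M libraries included) but PR-KO-F and PR-WT-F replicate 2, and other-cell content follows the number in part, all replicates 1 being high and all replicates 3 and 4 low. After the content term the correlations were -0.36 to 0.36, and 5 of 15 libraries correlated best with their own number, so the numbers were not taken as pairs across the 4 groups, and whether they pair libraries within a sex is not settled. A replicate block gave 1698 genes at an unadjusted p below 0.05, 0 called, and 23 and 17 genes with opposite effects. The shortest genes had medians of -0.19 to -0.06 in leave-one-out and the longest 0.07 to 0.16. Low-count genes are limited by depth, since 3 counts are up to 0.117 CPM.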

Other observations

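Among the 22 genes with the same sign and an unadjusted p below 0.05 in each sex, 7 lie on chromosome 9, which holds 1016 of the 16876 tested genes. They are Pgr, Gm16485, Gm19324, Pdgfd, Gm7628, Cep126 and Gm32014. Of the 15 genes with opposite signs 1 lies there, Olfr39. These genes were noticed after their values were seen, and no test was made.

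Mitochondrial transcripts made up 0.254% to 0.918% of counts in PR-KO-F, 0.376% to 0.619% in PR-WT-F, 0.404% to 1.12% in PR-KO-M and 0.391% to 0.506% in PR-WT-M.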
